A study of Bubalus bubalis with 12 samples.

Results

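Oxidative phosphorylation is the route by which mitochondria turn the electrons taken from nutrients into ATP. Complexes I to IV carry the electrons to oxygen while complexes I, III and IV pump protons across the inner membrane, and ATP synthase, also called complex V, lets the protons flow back to make ATP. A small core of these proteins is encoded by the mitochondrial genome and transcribed inside the organelle, whereas the nucleus encodes all of complex II and most subunits of the other complexes. In the ruminal wall, the epithelium takes up the short-chain fatty acids that microbes release and oxidises a share of them in its mitochondria.

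The genes described here are the protein-coding genes of the mitochondrial genome (ND1 to ND6, ND4L, CYTB, COX1 to COX3, ATP6 and ATP8) and the nuclear genes whose names begin with NDUFA, NDUFB, NDUFC, NDUFS, NDUFV or ATP5, the genes SDHA to SDHD, and LOC102389855, a locus annotated as COX7C, a small nuclear subunit of cytochrome c oxidase. They were chosen by name, and make 75 of the 34037 genes in the table, of which 13 are mitochondrial and 62 nuclear. The nuclear subunits of complex III, cytochrome c and the nuclear COX4 to COX8 subunits under their own symbols were not analysed here. LOC102389855 was included because the study had called it on these same animals, so it stays in the counts over all genes, but its own difference is given only as a description.

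RNA was sequenced from the ruminal wall of 12 adult Italian Mediterranean dairy buffaloes. The control group of 6 animals was fed a total mixed ration (TMR), and the treated group of 6 animals was fed TMR in which green ryegrass made up about 30% of the diet. Both diets were matched for nitrogen and energy, and every animal gave 1 stranded total RNA library. Levels are in FPKM, that is, counted fragments scaled by gene length and by the library's total, and 10531541 to 12948372 fragments were counted per animal. Complete biopsies were sequenced, so fewer cells of a type and less RNA per cell cannot be told apart. Markers of squamous epithelium were abundant in every library, with a sum over 8 genes of 1852 to 3973 FPKM, against 15.5 to 51.2 FPKM for 10 smooth muscle genes and 19.7 to 279 FPKM for 8 fibroblast genes. The libraries control 6 and treated 6 stood apart on the first principal component of all genes tested, which held 17.0% of the variance, and results that rest on them are given with and without them.

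The mitochondrial genes took 5.54% to 7.91% of all counted fragments in an animal and the nuclear genes 1.05% to 1.39%. On the FPKM scale, the sum over the 13 mitochondrial genes ran from 43723 to 63355 in the 12 animals and the sum over the 62 nuclear genes from 9416 to 12855, so that the mitochondrial sum was 4.36 to 5.99 times the nuclear one in every animal. Most of it came from the 3 core subunits of cytochrome c oxidase, complex IV, which held 91.5% to 97.0% of the mitochondrial FPKM. COX1, which carries the oxygen-reducing site, had the highest mean level of all genes in the table at 34666 FPKM. COX2, which receives the electrons from cytochrome c, followed at 13194 FPKM and was the second highest gene. COX3, the third core subunit, had a mean level of 3569.9 FPKM and rank 13. The ranges of these 3 genes did not overlap with each other: COX1 lay between 28359 and 40814 FPKM, COX2 between 8717 and 17872 FPKM and COX3 between 2932 and 4677 FPKM.

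The other 10 mitochondrial genes had far lower levels, and none of them reached the lowest value of COX3. ATP6, the proton channel subunit of ATP synthase, had a mean of 582 FPKM, and ND4 and ND3, membrane subunits of complex I, had means of 500.0 FPKM and 425 FPKM. CYTB, the only mitochondrially encoded subunit of complex III, had a mean of 334 FPKM and ND4L a mean of 326 FPKM. ND2, ND5 and ND1 followed with means of 267, 129 and 120.2 FPKM. The ranges of neighbours in this order overlapped over the 12 animals. ND6, which is read from the opposite strand of the mitochondrial genome to the other 12 genes, lay at the lower end with a mean of 37.0 FPKM. ATP8, the shortest gene at 201 bases, was the lowest with a mean of 28.2 FPKM and 26 to 116 fragments per animal. Only reads placed uniquely were counted, so fragments that also match copies of mitochondrial DNA in the nuclear genome may be missing from any of the mitochondrial genes. How far this lowered single levels or shaped their order was not tested. Levels of ATP8 and ATP6, and of ND4L and ND4, carry an added limit, because these neighbouring genes overlap in the mitochondrial genome and fragments in the overlap cannot be assigned to either.

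**Figure D1:**
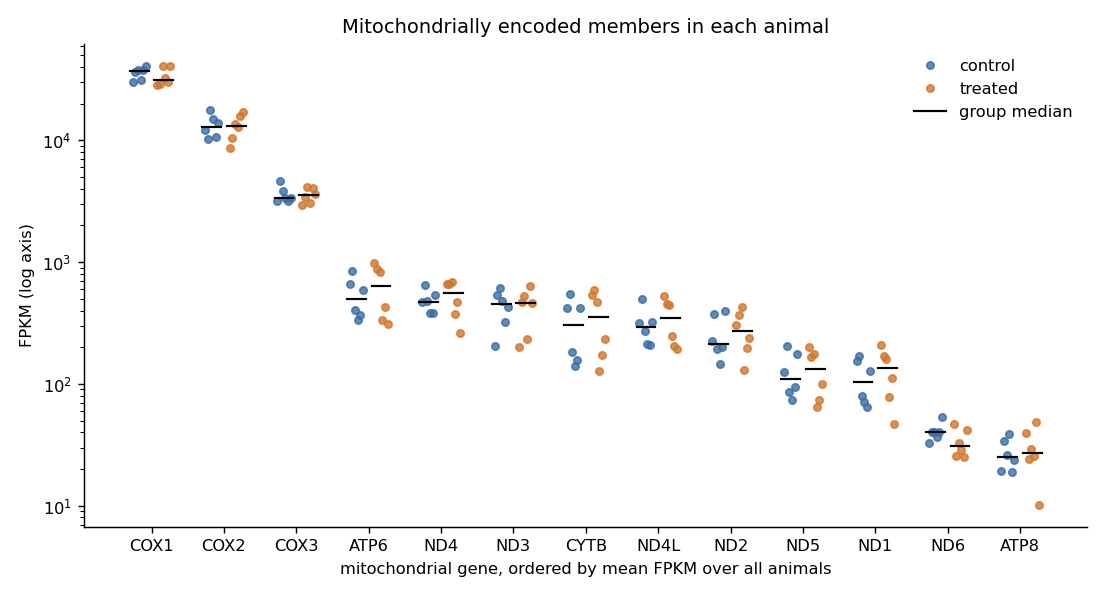
FPKM of the 13 mitochondrially encoded genes in each of the 6 control and 6 treated animals on a log axis, with genes ordered by their mean over all animals; points are animals and bars are group medians. COX1, COX2 and COX3 form separate steps above the other 10 genes, and the control and treated animals overlap in every gene.

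Among the nuclear genes, ATP synthase had the highest levels. ATP5F1A and ATP5F1B, the alpha and beta subunits of its catalytic head, had means of 1031 and 877 FPKM and ranked 90 and 98 among all genes. The ratio of ATP5F1A to ATP5F1B was between 0.98 and 1.57, and the highest values of 1.57 and 1.41 were those of control 6 and treated 6. The 3 genes that encode the same mature subunit of the membrane ring, through which protons pass, differed in level: ATP5MC2 had a mean of 503 FPKM, ATP5MC3 of 315 FPKM and ATP5MC1 of 94.5 FPKM. ATP5MC2 made up 45.0% to 61.4% of the FPKM of these 3 genes, and its lowest shares of 45.0% and 47.1% were again those of treated 6 and control 6. ATP5IF1, the inhibitor that stops the enzyme from running in reverse, had a mean of 153 FPKM. The peripheral stalk ranged from ATP5PF at 58.7 FPKM to ATP5PO at 418 FPKM.

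The nuclear genes of complex I were lower. The 7 nuclear core subunits, which carry the electrons within the complex, had mean levels from 38.8 FPKM for NDUFS3 to 311 FPKM for NDUFV2, with a median of 107 FPKM. The 29 accessory subunits had mean levels from 19.5 FPKM for NDUFA5 to 236 FPKM for NDUFS5, with a median of 76.3 FPKM. In complex II, which links the citric acid cycle to the electron chain, SDHA (the flavoprotein) had a mean of 217 FPKM, the membrane anchors SDHD and SDHC had means of 194 and 192 FPKM, and SDHB (the iron-sulfur subunit) had a mean of 57.6 FPKM. The SDHB values of 45.1 to 71.7 FPKM lay below those of the other SDH genes in each of the 12 animals, with SDHA at 1.33 to 5.10 times SDHB. NDUFA4, a small subunit found with complex IV, had a mean of 48.9 FPKM, while its paralogue NDUFA4L2 had a mean of only 0.243 FPKM, from 1 to 14 fragments per animal. Processed copies of such genes in the nuclear genome can take up fragments that no longer map to a single place, and how far this lowered any level was not tested.

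The comparison of the diets asked whether green feed changed the level of these transcripts. No mitochondrial or nuclear gene of oxidative phosphorylation differed beyond the correction for all genes. With limma on log2(FPKM + 0.01), 0 of 16450 genes tested had a Benjamini-Hochberg adjusted p under 0.05, which is 0% of them, and 301 genes (1.83%) had an unadjusted p under 0.05. All 75 oxidative phosphorylation genes passed the filter of 0.1 FPKM in at least 6 animals. Of them, 1 had an unadjusted p under 0.05. This was NDUFA4L2, lower in the treated group, where the share of all genes tested called in that direction was 0.809%; none was called higher, against 1.02% of all genes tested. In none of the 75 genes did the groups fail to overlap, against 11 of all genes tested (0.0669%).

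The mitochondrial and the nuclear genes were then set beside each other between the diets. The mean log2 level was higher in the treated group for 8 of 13 mitochondrial and 46 of 62 nuclear genes, against 50.3% of all genes tested, and these genes share the same 12 libraries, so they are not independent of each other. The median log2 fold change was 0.03 for the mitochondrial and 0.05 for the nuclear genes, and 0.0016 for all genes tested. Within a diet, the median log2 FPKM of an animal had an SD between animals of 0.58 over the mitochondrial and 0.19 over the nuclear genes. The mitochondrial FPKM sum averaged 55255 ± 5456 in control and 53099 ± 8062 in treated animals (mean ± SD, n = 6 animals each). The nuclear sum was 10602 ± 1019 and 10949.7 ± 1349 in the same order. The mitochondrial to nuclear ratio was 5.24 ± 0.60 with TMR alone and 4.86 ± 0.52 with green feed, a difference of -0.11 on the log2 scale, smaller in size than the SD between animals of 0.17 and 0.15. The sums weigh COX1 to COX3 most: the difference was 0.05, in the other direction, when the median log2 levels of both sets were compared, and the 10 other mitochondrial genes summed to 2624 ± 772 FPKM with TMR alone and 2870.3 ± 1013 FPKM with green feed. Without control 6 and treated 6, the median log2 fold change was 0.26 for the mitochondrial genes and -0.0048 for the nuclear genes, and NDUFA4L2 was the only gene with an unadjusted p under 0.05.

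**Figure D2:**
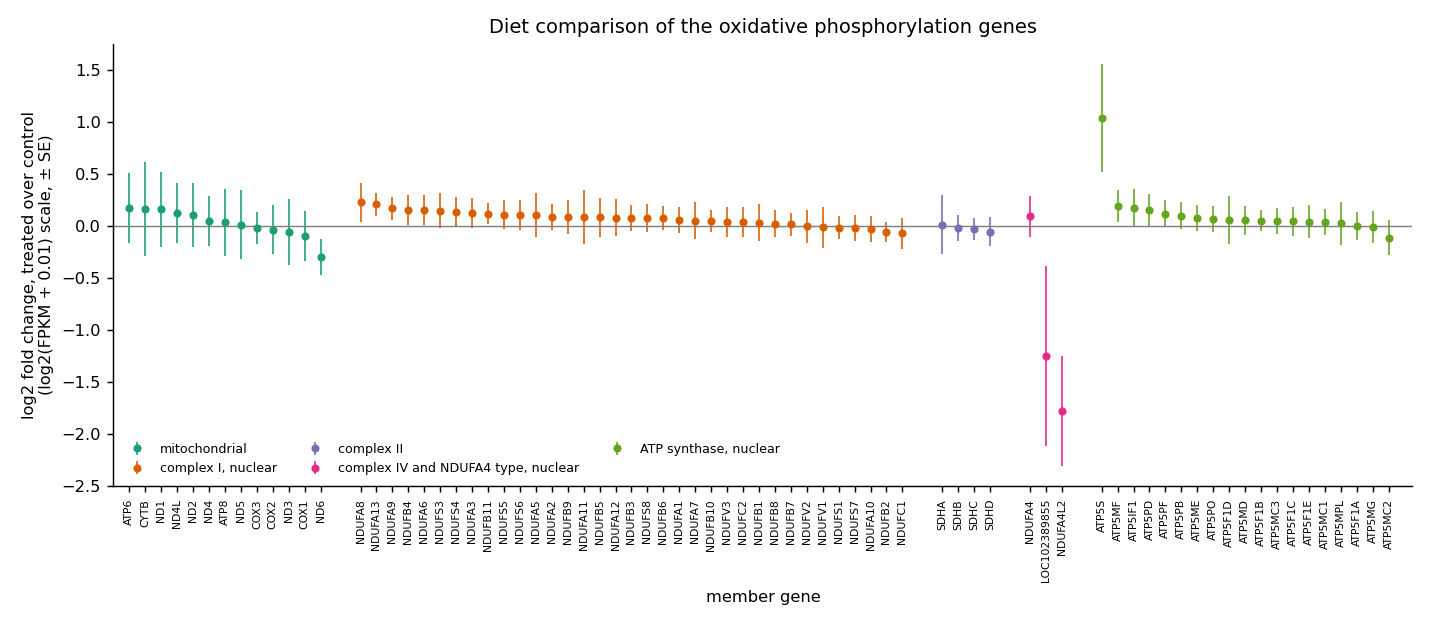
Log2 fold change of the treated over the control group for the oxidative phosphorylation genes on the log2(FPKM + 0.01) scale, with its standard error from limma, grouped by genome and complex. Most nuclear genes lie close to 0 with short error bars, the mitochondrial genes lie close to 0 with longer ones, and NDUFA4L2, LOC102389855 and ATP5S stand away from the rest.

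By complex, the nuclear genes of complex I had a median log2 fold change of 0.07. The median was 0.08 for the accessory subunits, with 26 of 29 higher in the treated group. It was -0.0057 for the core subunits, with 2 of 7 higher. No nuclear complex I gene had an unadjusted p under 0.05, against 1.83% of all genes tested. Complex II had a median of -0.03, with SDHA as the 1 of 4 genes that was higher. The 18 genes of ATP synthase proper ranged from -0.12 for ATP5MC2 to 0.19 for ATP5MF. NDUFA13, an accessory subunit of complex I, had the largest change relative to its error among the complex I genes. It had 90.1 to 136 FPKM in the control group, with a median of 119 FPKM, and 114 to 145 FPKM in the treated group, with a median of 136 FPKM. The ranges overlapped widely, and the log2 fold change of 0.21 ± 0.11 (SE) gave p = 0.0779 in a two-sided exact permutation test. Control 6 held the lowest value, and the log2 fold change was 0.14 without it and 0.11 without control 6 and treated 6 (limma, unadjusted p = 0.244). NDUFA13 and ATP5S, below, were singled out after their values were seen.

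Of the mitochondrial genes, ND6 had the largest log2 fold change. Its level was 33.0 to 53.4 FPKM in the control group, with a median of 39.9 FPKM, and 25.2 to 46.7 FPKM in the treated group, with a median of 30.7 FPKM. In 4 of 6 treated animals ND6 was below every control animal, and the groups overlapped through treated 1 and treated 6. The log2 fold change was -0.30 ± 0.17 (SE, n = 6 animals each), with p = 0.13 in the exact permutation test, and it was -0.22 without control 6, the highest control animal, and -0.29 without control 6 and treated 6. The other 12 mitochondrial genes had log2 fold changes from -0.10 for COX1 to 0.17 for ATP6, and their exact permutation p ran from 0.468 for COX1 to 0.978 for ND5.

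NDUFA4L2 is known elsewhere as a gene induced by low oxygen, and it had very few fragments here. The control animals had 14, 8, 10, 7, 12 and 7 fragments, and the treated animals had 9, 4, 3, 1, 1 and 2 fragments. In FPKM, the control group had 0.251 to 0.506 with a median of 0.328, and the treated group had 0.0376 to 0.342 with a median of 0.0924. All treated animals except treated 1 were below the lowest control animal, and 4 treated animals had 3 fragments or fewer, which was taken as the floor of detection. The log2 fold change on the log2(FPKM + 0.01) scale was -1.78 ± 0.53 (SE), with p = 0.00866 in the exact permutation test, whose smallest possible p with 6 animals against 6 is 0.00216, and a limma adjusted p of 1.00 over all genes tested. Its size follows the pseudocount and was -1.13 with 0.1 and -0.28 with 1 in place of 0.01. NDUFA4L2 passed the filter of 0.1 FPKM in at least 6 animals through the control group, as not all treated values reached 0.1 FPKM. Its p-values are therefore a description and not support for a difference. NDUFA4 itself had 32.9 to 60.7 FPKM in control and 38.3 to 83.5 FPKM in treated animals, and did not differ beyond the spread between animals (log2 fold change 0.09 ± 0.20, SE).

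Smooth muscle and fibroblast markers were lower in the treated group, as NDUFA4L2 was. All 10 smooth muscle genes had a lower mean in the treated group, 3 of them with an unadjusted p under 0.05 (0.809% of all genes tested were called lower), and their median log2 fold change was -0.84. The sum of these markers was 28.9 to 51.2 FPKM in the control and 15.5 to 40.7 FPKM in the treated animals. All 7 fibroblast genes tested were lower as well, with a median of -0.73, and the sum was 45.3 to 279 FPKM in the control and 19.7 to 180.3 FPKM in the treated animals. None of the markers on these lists was at 0 in every animal. Of the other lists, 4 of 5 T cell and 5 of 6 endothelial genes were lower, with medians of -0.26 and -0.10. Higher means were seen in 5 of 8 squamous epithelial, 2 of 4 macrophage and dendritic, and 1 of 2 B and plasma cell genes. With a score of the smooth muscle and fibroblast lists in the fit, NDUFA4L2 had a log2 fold change of -2.47 (limma, unadjusted p = 0.000638). NDUFA13 and NDUFB4, higher in the treated group, also had unadjusted p-values under 0.05. These are 3 of the 75 genes, while such calls over all 16450 genes tested rose as well, from 301 to 461. In that fit the median log2 fold change was -0.18 for the mitochondrial and 0.17 for the nuclear genes. The score is made of genes that were lower in the treated group, so this fit cannot separate tissue makeup from diet. The part of tissue makeup in these differences was not tested.

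ATP5S, named for a coupling factor of ATP synthase, was more spread out among the control than among the treated animals. The control animals had 4, 34, 65, 15, 19 and 36 fragments, or 0.248 to 3.91 FPKM, and the treated animals had 46, 47, 38, 40, 49 and 44 fragments, or 2.46 to 3.22 FPKM. The treated values lay within the control range, between control 3 above and the other controls mostly below. The log2 fold change was 1.04 ± 0.52 (SE), with p = 0.102 in the exact permutation test, and an unadjusted limma p of 0.0652. That limma p was 0.0173 without control 3 and 0.0399 without control 6, whereas without control 1 the log2 fold change was 0.55 with an unadjusted limma p of 0.115, and with the score of smooth muscle and fibroblast markers the limma p was 0.134. A difference in spread was not tested.

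LOC102389855, annotated as the complex IV subunit COX7C, was the most variable gene of the 75, with a coefficient of variation of 190% over the 12 animals. It had 126 FPKM in control 4, 28.7 FPKM in control 3 and 30.5 FPKM in treated 3, while the other 9 animals had 2.28 to 7.27 FPKM. Of its 1124 fragments, 57.4% came from control 4 and 83.9% from these 3 animals. The lower mean of the treated group (7.89 ± 11.1 FPKM, against 29.2 ± 48.3 FPKM in the control group, SD) was thus set by few libraries: the log2 fold change was -1.25 ± 0.86 (SE) with all animals, -0.56 without control 4 and -1.79 without treated 3. Apart from it, NDUFA4L2 and ATP5S, the other 59 nuclear genes had a highest value of 1.29 to 2.84 times the lowest. In the RefSeq annotation of the assembly NDDB_SH_1, LOC102389855 lies within the span of ZFAND3, which had 3.73 to 9.54 FPKM and no high value in control 4. The gene is 404 bases long in the files, and copies of the same sequence elsewhere in the genome would leave its count uncertain.

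**Figure D3:**
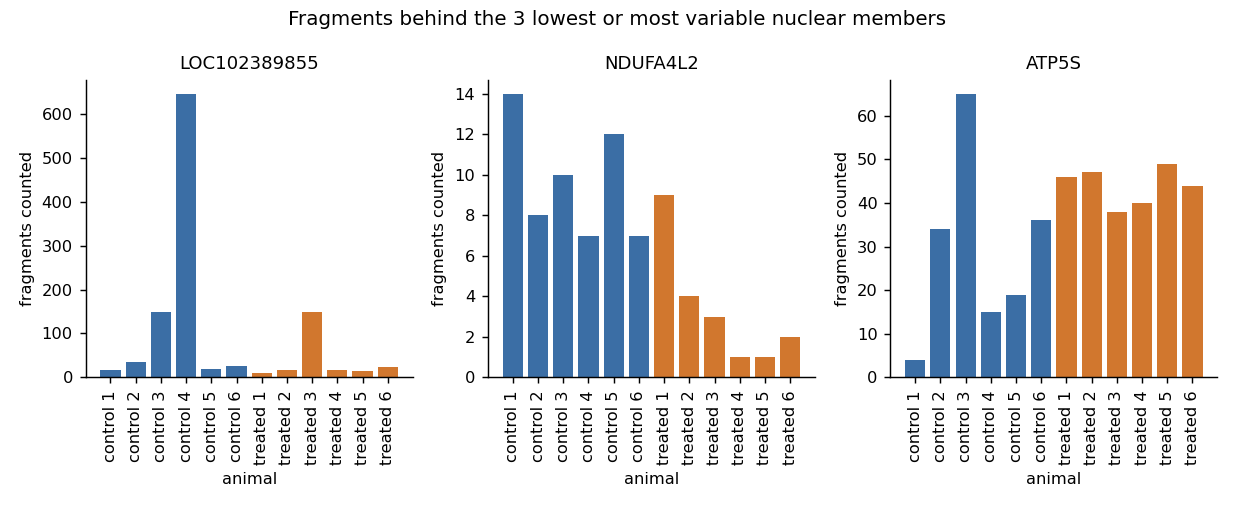
Fragments counted in each animal for LOC102389855, NDUFA4L2 and ATP5S, with a separate linear axis from 0 for each gene; bars are single animals, blue for control and orange for treated. LOC102389855 is carried by control 4 with 645 fragments, NDUFA4L2 has at most 14 fragments in any animal, and the 6 treated animals have similar ATP5S counts of 38 to 49.

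Variation between animals was larger in the mitochondrial than in the nuclear genes. The highest animal had 1.44 (COX1) to 4.79 (ATP8) times the level of the lowest, with a median of 3.16 over the 13 mitochondrial genes, against a median of 1.77 over the 62 nuclear genes. The median coefficient of variation was 37.6% for the mitochondrial and 16.7% for the nuclear genes, while that of all genes tested was 28.7%. ATP5F1B had the lowest at 7.37%, followed by NDUFB2 at 9.24% and SDHC at 10.2%. CYTB had the highest among the mitochondrial genes at 53.9%.

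The CYTB values fell apart into high and low animals within both diets. In the control group, control 1, 2 and 6 had 422, 548 and 424 FPKM, while control 3, 4 and 5 had 184, 140.4 and 156 FPKM. In the treated group, treated 1, 2 and 3 had 534, 589 and 473 FPKM, while treated 4, 5 and 6 had 128, 174 and 234 FPKM. No animal lay between 234 and 422 FPKM, and each diet had 3 animals on either side. ND1, ND4L, ND5 and ATP6 had the same 6 animals at the top as CYTB, and ND2 and ND4 shared 5 of them. These genes belong to complexes I, III and V. Some sharing occurs between any genes, and how many of all genes tested have the same 6 animals at the top was not counted. In ATP6, the highest values were 988 FPKM in treated 1 and 886 FPKM in treated 2, and the lowest were 308 FPKM in treated 6 and 334 FPKM in control 4.

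The complex IV genes did not follow this order. COX2 shared 2 of its 6 highest animals with CYTB, and COX1 and COX3 shared 3 each, as did ND3, ND6 and ATP8. In consequence, the ratio of COX1 to CYTB ranged from 49.3 in treated 2 to 255 in treated 4. The 6 animals with the higher CYTB values had 10531541 to 12565336 counted fragments and the others 11855372 to 12948372. The animals fall into these sets by the measured values, not by any label, and the part of depth, tissue makeup or mapping to nuclear copies was not tested. The mitochondrial differences between the diets thus carry wide errors, such as 0.45 on the log2 scale for CYTB.

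**Figure D4:**
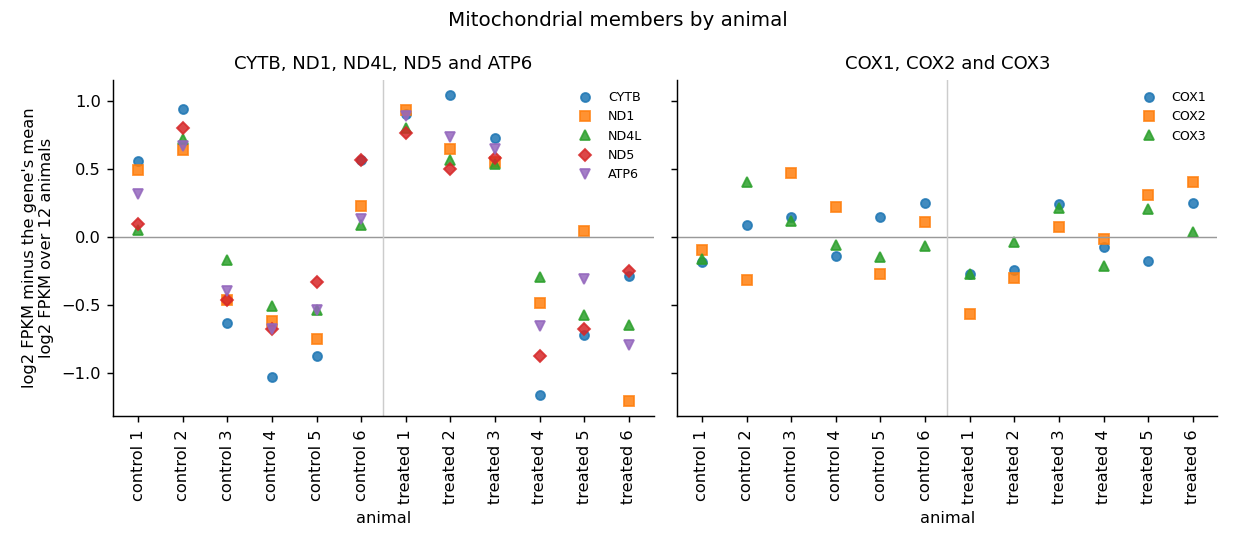
Log2 FPKM minus each gene's mean log2 FPKM over the 12 animals, for CYTB, ND1, ND4L, ND5 and ATP6 (left) and COX1, COX2 and COX3 (right); each point is a gene in an animal and the animals of a group have no order. In the left panel control 1, 2 and 6 and treated 1, 2 and 3 lie above 0 in all 5 genes, while the 3 genes on the right spread less and do not share that pattern.

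The libraries control 6 and treated 6, which belong to different diets, differed from the other 10 in a set of nuclear genes. SDHA had 98.2 FPKM in control 6 and 95.5 FPKM in treated 6, against 211 to 271 FPKM in the others. NDUFV1, the flavoprotein of complex I, had 82.1 and 84.9 FPKM against 121 to 171 FPKM, and ATP5F1D, the delta subunit of the ATP synthase head, had 80.3 and 69.7 FPKM against 140.4 to 175 FPKM. In contrast, NDUFB5 had 159 and 229 FPKM against 100.0 to 138 FPKM, and ATP5PB, a peripheral stalk subunit, had 385 and 462 FPKM against 269 to 361 FPKM. These 2 libraries were both the lowest in 10 and both the highest in 8 of the 62 nuclear genes, together 29.0%, against 23.1% of all genes tested. In the 13 mitochondrial genes this occurred once, in COX1, where they had 40682 and 40814 FPKM.

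Low values in both libraries were thus not limited to respiratory genes. The epithelial marker sum was 1852 FPKM in control 6 and 1959 FPKM in treated 6, against 2686 to 3973 FPKM in the other animals. KRT5, a keratin of basal epithelial cells, had 451 and 498 FPKM against 1179 to 2372 FPKM, and PKP1, a desmosomal protein, had 117 and 63.5 FPKM against 256 to 399 FPKM. Both genes were picked as examples of low values. In the other animals KRT5 made up much of the marker sum, while in control 6 and treated 6 most of the sum came from other markers. The low sum therefore does not show that the rest of the list was low. Markers not named here need not share the direction of KRT5 and PKP1. The part of the tissue makeup or of RNA quality in these values was not tested. As the diets hold 1 such library each, the log2 fold change of SDHA was 0.01 ± 0.28 (SE), its error being the largest among the 4 genes of complex II.

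**Figure D5:**
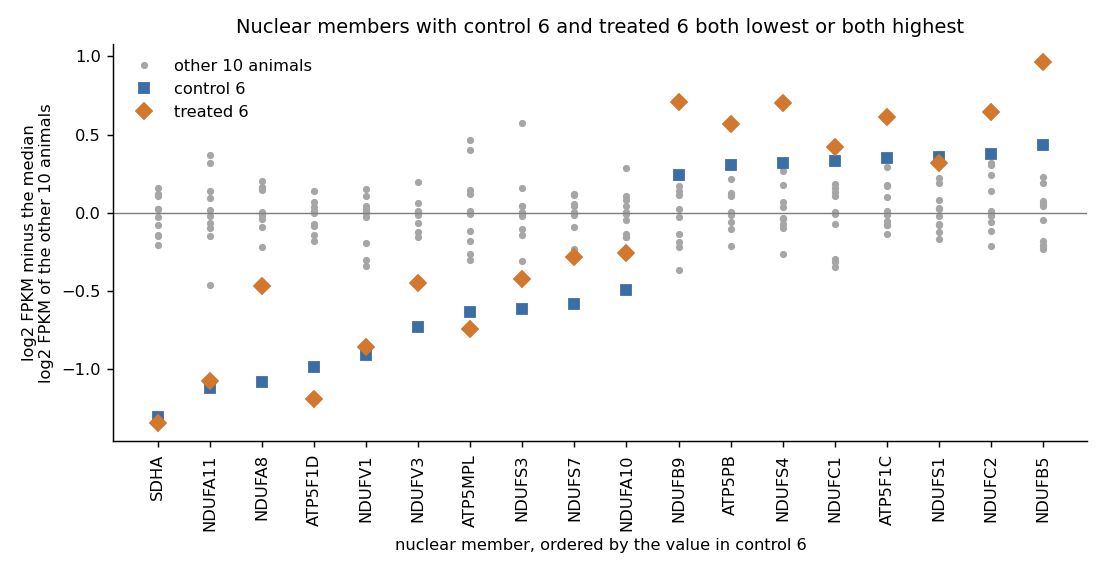
Log2 FPKM minus the median log2 FPKM of the other 10 animals, for the 18 nuclear genes in which control 6 (blue squares) and treated 6 (orange diamonds) were both the lowest or both the highest; grey points are the other 10 animals. SDHA lies lowest on the left and NDUFB5 highest on the right, with both libraries on the same side in every gene shown.

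Other genes that make, build and feed the respiratory chain were compared between the diets in the same fit. Of the listed assembly genes, only 3 of 21 for complex IV and 6 of 10 for complexes II and III were analysed here. The 3 for complex IV had log2 fold changes from -0.67 to 0.03. None of 15 complex I assembly genes, 6 complex II and III assembly genes, 3 complex IV assembly genes or 5 ATP synthase assembly genes had an unadjusted p under 0.05, with median log2 fold changes of -0.02, 0.02, -0.06 and -0.02. The same held for 24 genes of mitochondrial DNA replication and transcription (median 0.02) and for 9 nuclear regulators of respiratory genes (0.03). It also held for 13 citric acid cycle genes (0.00057), 10 genes of uncoupling and quinone entry (0.07) and 77 mitochondrial ribosomal protein genes (0.04). Of all genes tested, 1.83% had an unadjusted p under 0.05. At that share, lists this short hold few such genes or none, so their absence is not a result about these lists. SUCLG1, a subunit of succinyl-CoA ligase in the citric acid cycle, was the highest gene of its list and had the largest log2 fold change there. Its level was 212 ± 30.5 FPKM with TMR alone and 249.5 ± 28.4 FPKM with green feed (SD, n = 6 animals each), with a log2 fold change of 0.24 ± 0.12 (SE) and p = 0.058 in the exact permutation test. SLIRP, which binds mitochondrial mRNA and was the highest gene of the replication and transcription list, had 191 ± 36.5 and 193 ± 54.7 FPKM, and ESRRA, a nuclear receptor that drives respiratory genes, had 51.3 ± 14.2 and 54.0 ± 9.47 FPKM.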

How the data were processed

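Total RNA libraries of the ruminal wall of 12 buffaloes, 1 per animal, were compared. Per the labels and the study's methods, reads were checked with FastQC 0.11.5, trimmed with Trimmomatic 0.39, aligned with STAR 2.5.2b to the UOA_WB_1 genome and counted by strand with featureCounts 2.0.0 at high mapping quality, which keeps uniquely placed reads. The authors deposited FPKM per gene, and 4 of 16 value columns matched no sample label and were not used. The FPKM of all 22972 genes above 0 were whole multiples of 1 fragment (100%, tolerance 0.01 fragment), which gave the fragments behind each value.

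The diets were compared with limma 3.58.1 in R 4.3.3 (lmFit, eBayes with trend, two-sided) on log2(FPKM + 0.01). The 16450 genes at 0.1 FPKM or above in 6 or more animals were fitted, with Benjamini-Hochberg adjustment. Single genes were also tested with the two-sided exact permutation test over 924 assignments. The scripts were tested on simulated data. The genes and lists were chosen with earlier results of these data known. Genes were named by a rule: all mitochondrial genes, the highest nuclear genes of each complex, the isoforms, the SDH genes, ATP5IF1, genes with an unadjusted p under 0.05, and those of extreme coefficient of variation; further genes are named as examples of a group or of an animal's deviation. P-values test a difference of group means against the spread between animals. Alternatives covered the pseudocount, filter, scaling, fit, a stromal score, the replicate block and leaving out animals. A single gene is counted in the totals but is not reported here by itself.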

Additional observations from a re-analysis of the deposited data

Results flagged for a closer look

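In 72 groups of 6 values (the 30 genes named by rule and 6 sums or ratios, in each diet), 8 had a highest or lowest animal whose gap to the next, relative to the whole range, was above Dixon's critical value. Chance flags about 1 in 20 groups of independent, normally spread values. Some of these genes were named for an extreme coefficient of variation or a low p in the same animals. The number of flags is therefore not read against that rate. SDHA was low in control 6 at 98.2 FPKM and in treated 6 at 95.5 FPKM, against 211 to 271 FPKM in the other animals. NDUFA4 was high in treated 6 at 83.5 FPKM, against 38.3 to 53.9 FPKM in the other treated animals, and ND6 was high in control 6 at 53.4 FPKM, against 33.0 to 40.3 FPKM. LOC102389855 was high in control 4 at 126 FPKM and in treated 3 at 30.5 FPKM. NDUFB2, a complex I accessory subunit, was low in control 5 at 35.2 FPKM, against 38.3 to 39.7 FPKM in the other controls. NDUFA4L2 was high in treated 1 at 0.342 FPKM, against 0.0376 to 0.151 FPKM in the other treated animals. The causes of these values were not tested.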

How the results depend on the processing

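Adjusted p-values under 0.05 were found for 0 genes under every alternative run. Unadjusted calls over all genes numbered 301, and 151 with a filter of 1 FPKM, 562 with no filter, 461 with the smooth muscle and fibroblast score, and 283 (without control 2) to 465 (without treated 6) when single animals were left out. Among the 75 genes, 1 had such a p. This became 0 with the filter of 1 FPKM, where NDUFA4L2 was not tested, 2 (with ATP5S) with voom on the recovered fragments, 3 (with NDUFA13 and NDUFB4) with the score, and 1 to 3 with single animals left out. There were 3 without control 3 (ATP5S and NDUFA13 added) and without treated 2 (NDUFA13 and NDUFB11 added). There were 2 without control 6 (ATP5S added), without treated 1 or treated 6 (ND6 added) and without treated 3, where the added gene was LOC102389855, whose p is not read as a test. NDUFA4L2 kept an unadjusted p under 0.05 in the 22 alternatives that tested it (0.000638 to 0.0146). These alternatives reuse the same few fragments of the same animals, so they add no separate support. Among the 30 genes named by rule, 1 passed the exact test, and 1 to 2 with single animals left out (2 without treated 1). With single animals left out, the median log2 fold change ranged from -0.06 to 0.14 for the mitochondrial and from 0.01 to 0.10 for the nuclear genes, and the difference in the log2 mitochondrial to nuclear ratio from -0.16 to -0.07. That difference was -0.11 in all animals and 0.05 from median log2 levels. Of 1724 single-gene values under alternatives, 175, in 52 genes, had the other sign than the reported value with no unadjusted p under 0.05 in either. None of the calls was lost or turned in direction. The alternative without both animals numbered 6 was chosen after the data were seen.

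Animals share numbers between diets in the sample descriptions only. The sample titles give other numbers to control 6 and to all treated animals, so the labels define no pairs, and the numbers were not read as pairs. The deviations correlated above 0.1 in 3 of 6 same-numbered pairs (-0.03 to 0.22, mean 0.09, against a mean of -0.02 in other pairs). In 6 of 12 animals the best correlation was with their own number. Whether same-numbered animals are more alike than others was not tested. With the replicate block, 464 genes had an unadjusted p under 0.05, 0 an adjusted one, and NDUFA4L2 remained the 1 such oxidative phosphorylation gene, while the log2 ratio difference was -0.11.

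Genes with under 20 fragments, such as NDUFA4L2, are limited by depth.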
